A study of Rattus norvegicus with 8 samples.

Results

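The Slc25 genes encode the mitochondrial carriers, here taken as the probe sets that the platform annotation assigns to exactly 1 gene with a symbol starting with Slc25a, without Slc25a20 and Slc25a28. The rule gave 56 probe sets for 38 genes, of 31042 probe sets and 14217 genes measured. Both Slc25a51 probe sets carry 2 gene identifiers and were therefore not members. Liver RNA came from male Sprague-Dawley rats aged 7 weeks, 1 Affymetrix 3' array per rat and 4 rats per diet. Each diet was fed to 11 rats, and the sample titles do not say how the 4 were chosen. Control rats were fed for 2 weeks, per the design text of the series, on the rodent chow CRF-1 to which cholesterol (10 g per kg of diet) and cholic acid (5 g per kg) had been added. L. brevis rats had the same high-cholesterol feed plus freeze-dried, viable Lactobacillus brevis 119-2, a lactic acid bacterium, at 10 g per kg. Both groups thus carry the cholesterol and cholic acid load, and no rat on a plain diet enters the comparison. In the source label the control animals are described with CRF-1 alone, and the design text was followed.

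Mitochondrial carriers are small proteins of the inner mitochondrial membrane, built from repeats of a common fold, that exchange or import metabolites the membrane does not let through. They carry ADP and ATP, phosphate, citrate and other carboxylates, amino acids, cofactors and iron. In the liver they serve ATP export, the supply of cytosolic citrate for fatty acid and sterol synthesis, the malate-aspartate shuttle and the ornithine exchange of the urea cycle. The comparison asks how their transcripts stood in livers of rats with and without the bacterium, by substrate.

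The livers carried the hepatocyte markers fixed for the check. Of the 9 measured hepatocyte genes 7 varied at their brightest probe set, with 0 of the 7 at an unadjusted p under 0.05, and their mean ran from 12.72 to 12.90 in control and from 12.74 to 12.99 in L. brevis livers. Skeletal muscle markers had a mean of 8.72 over 12 varying genes in L. brevis rat 2, against 6.53 to 6.66 in the other 7 rats. Of 7 endothelial genes measured 5 varied, all 5 at a negative difference and 3 of them with an unadjusted p under 0.05 (as 522 of the 3806 genes of the series with a varying brightest probe set had on that side), with a mean of 8.94 to 9.50 in control and 8.73 to 8.95 in L. brevis livers. Of 7 macrophage genes 6 varied, 5 at a positive difference and 2 of these with such a p (as 263 of the 3806 had), with a mean of 8.70 to 9.19 in control and 8.88 to 9.23 in L. brevis livers. The part of these cell types in the carrier signals was not tested. The signal of the 5' GAPDH control probe set minus that of the 3' set, a common index of RNA length, was -2.41 ± 0.59 (SD, n = 4) in control and -1.28 ± 0.66 (SD, n = 4) in L. brevis livers (exact permutation p = 0.0857, two-sided, where 4 against 4 can give no less than 0.0286). Array medians ran from 6.61 to 6.63. In RNA from whole tissue, fewer cells of a type and less RNA per cell cannot be told apart.

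All values below are the deposited log2 signals, and differences are L. brevis minus control. Of the 56 probe sets 27 varied, meaning that their range over the 8 arrays was above 0.01 log2, and these belong to 20 genes. That is 48.2% of the member probe sets, against 20.4% of all probe sets measured, which include 9780 without a gene symbol. By gene, 20 of the 38 members had a varying probe set, against 4159 of all 14217 genes. The smallest range among varying members was 0.21 log2 (Slc25a10) and the largest among the other 29 was 3.16e-07, so no member lay near the limit. A probe set with 1 value on all arrays ("held" below) gives no measurement of a difference, nor of its absence. For 17 genes the brightest probe set varied, and for Slc25a13, Slc25a32 and Slc25a46 a dimmer one alone did.

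No mitochondrial carrier passed the adjusted threshold of 0.05 between the diets (limma over all 31042 probe sets, Benjamini-Hochberg), where 0.142% of all probe sets did. These were 44 probe sets, and only 7 of them were among the 6323 that varied. Fitted without the flat probe sets, 0 members were called as well, against 0.0633% of that background. The smallest limma adjusted p of a member in that fit was 0.152, at a dimmer Slc25a15 probe set, and Slc25a16 had 0.171. Adjusted p-values given below for single probe sets in the diet comparison are from the fit over all 31042. Of all 6323 varying probe sets 2921 were higher and 3402 lower in L. brevis livers. Of the 27 varying carrier probe sets 20 were higher and 7 lower. An unadjusted p under 0.05 was reached by 4 of them on the higher side, where 9.44% of all varying probe sets did so, and by 0 on the lower side, where 13.5% did. These 4 belong to 3 genes, Slc25a15, Slc25a16 and Slc25a32. The count of 4 was 0 without L. brevis rat 4, 1 without L. brevis rat 2 or rat 3, 2 without control rat 1 and 6 without L. brevis rat 1. Diets did not separate for any member: in 0 of 27 did all L. brevis rats lie above all control rats, a pattern of 4.21% of varying probe sets, and in 0 of 27 below, a pattern of 7.09%. Over the 3806 genes of the series with a varying brightest probe set, 1599 were higher and 2207 lower, with a median difference of -0.042. Over the 17 such carrier genes 11 were higher and 6 lower, with a median difference of 0.034. Without control rat 2 it was -0.048 and without control rat 4 it was 0.129, and over all 27 varying probe sets the median was 0.18. The spread between rats of a diet had a median SD of 0.35 log2 over the 27 member probe sets and 0.22 over all varying ones.

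**Figure D1:**
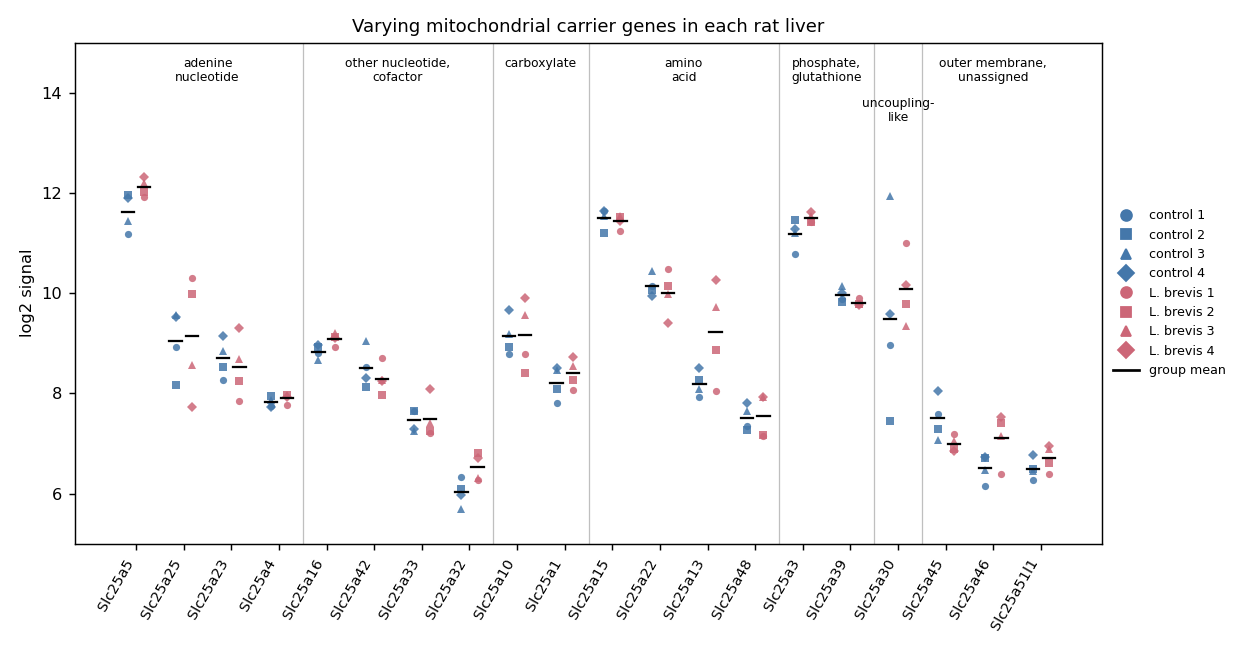
Log2 signal (vertical axis) of the 20 carrier genes with a varying probe set, at the brightest varying one, in each of the 8 rats. Blue marks are control rats, red marks L. brevis rats, shapes give the rat number and black bars the group means. The diets overlap in every gene shown, and Slc25a30 spans 7.45 to 11.94.

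Among the 4 varying carriers of adenine nucleotides, Slc25a5 had the largest difference. It encodes ANT2, which exchanges cytosolic ADP for mitochondrial ATP. It stood at 11.18, 11.97, 11.44 and 11.91 in control rats 1 to 4 and at 11.91, 12.02, 12.20 and 12.32 in L. brevis rats 1 to 4. Control rats 1 and 3 were the low ones, and control rat 2 lay above L. brevis rat 1. The difference was +0.49 (SE 0.21, limma adjusted p = 0.445), or 1.41-fold. Slc25a3, the phosphate carrier that brings in the phosphate for ATP synthesis, had 10.78, 11.47, 11.19 and 11.28 in control and 11.41, 11.42, 11.54 and 11.62 in L. brevis rats. Control rat 1 was again the lowest, and the diets overlapped through control rat 2. Its difference was +0.32 (SE 0.15, limma adjusted p = 0.517), and +0.18 without control rat 1. That rat also set part of the Slc25a5 difference, which was +0.34 without it.

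The signals of Slc25a3 and Slc25a5, whose products act with ATP synthase in the same step of energy supply, ran together over the 8 rats. Pearson's r was 0.952 (exact permutation p = 0.000124) and Spearman's rho 0.976 (exact permutation p = 0.000397), for 1 pair of genes compared. This pair was not among the comparisons fixed beforehand, and its p-values are not adjusted for the choice. They therefore do not measure how unusual such an r is among pairs of genes. Other pairs were not computed beside it, so whether the relation is particular to this pair was not tested. Without control rats 1 and 3, the farthest from the Slc25a3 median, r was 0.89, and over the deviations from each diet's mean it was 0.917. Both signals also ran with the GAPDH index, as described further on. Slc25a4, which encodes ANT1, the form that prevails in muscle and heart, had 7.76, 7.94, 7.86 and 7.73 in control and 7.77, 7.96, 7.97 and 7.93 in L. brevis rats. L. brevis rats 1 and 4 lay inside the control range, and the difference was +0.083 (SE 0.066, limma adjusted p = 0.724). L. brevis rat 2, the liver with the muscle markers, lay between L. brevis rats 4 and 3 there.

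The 250 bases before the annotated start of both genes are shown because their signals ran together, with those of Slc25a25, the adenine nucleotide carrier with the widest spread between rats. They are RefSeq's sequences of build GRCr8, on chr7:27506628-27506877 (minus strand) for Slc25a3, chrX:120897366-120897615 (plus strand) for Slc25a5 and chr3:36116582-36116831 (minus strand) for Slc25a25, each 5′ to 3′ on the gene's strand. Capitals mark every match to a searched motif.
Slc25a3: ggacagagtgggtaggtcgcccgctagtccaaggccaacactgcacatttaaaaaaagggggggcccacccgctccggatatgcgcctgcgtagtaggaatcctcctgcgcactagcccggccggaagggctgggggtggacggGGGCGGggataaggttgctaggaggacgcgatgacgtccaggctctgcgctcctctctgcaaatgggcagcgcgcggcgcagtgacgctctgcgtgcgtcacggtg
Slc25a5: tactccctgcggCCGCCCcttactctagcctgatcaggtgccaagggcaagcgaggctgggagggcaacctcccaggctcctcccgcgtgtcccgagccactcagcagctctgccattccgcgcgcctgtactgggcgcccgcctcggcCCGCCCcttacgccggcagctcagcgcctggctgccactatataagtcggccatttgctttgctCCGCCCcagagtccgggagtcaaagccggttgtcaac
Slc25a25: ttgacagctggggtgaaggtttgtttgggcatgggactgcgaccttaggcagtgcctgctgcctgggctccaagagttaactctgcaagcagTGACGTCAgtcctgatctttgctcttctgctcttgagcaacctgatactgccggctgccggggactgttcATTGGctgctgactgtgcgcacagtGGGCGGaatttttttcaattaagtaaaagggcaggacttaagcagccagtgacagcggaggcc

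A promoter window was given for 32 of the 38 carrier genes. These short motifs were searched on both strands: GGGCGG (GC box), CCAAT, TGACGTCA (the cyclic AMP response element, CRE), CACGTG (E-box), GCATGCGC (core of the NRF1 site) and TCAAGGTCA (an ERR element). The GC box stood once in the Slc25a3 window, 106 bases before the start, and in Slc25a5 at 238, 101 and 37 bases before it. It was in 59.4% of the carrier windows and in 32.4% of all 27457 windows. The CRE stood in Slc25a25, 158 bases before the start, and in Slc25a33, that is in 2 of 32 carriers (6.25%) and 1.7% of all windows. Slc25a25 also held CCAAT and a GC box at 88 and 63 bases. CCAAT was in 18 carriers (56.2%, and 34.3% of all windows), the E-box in 2 (6.25%, and 5.79%), the NRF1 core in 2 (6.25%, and 2.38%) and the ERR element in 0 of 32 (0.368% of all). The matches named here did not overlap one another. Carrier windows had a median GC content of 58.4%, all windows 52%, and the shares were not matched for base composition. A match is a run of letters, not a measured binding site.

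The ATP-Mg/phosphate carriers, which shift the adenine nucleotide content of the mitochondrial matrix and respond to calcium, varied widely between rats of a diet. Slc25a25 stood at 8.93, 8.17, 9.57 and 9.52 in control rats and at 10.31, 9.98, 8.57 and 7.74 in L. brevis rats. The highest and the lowest of the 8 values were both in L. brevis rats, and the difference of +0.10 (SE 0.68, limma adjusted p = 1.0) was far inside the spread. Its SD between rats of a diet, 0.97 log2, was above that of 97.2% of varying probe sets. Slc25a23 had 8.28 to 9.15 in control and 7.86 to 9.30 in L. brevis rats (-0.18, SE 0.36), and +0.14 at its other varying probe set. Slc25a24 and Slc25a41, of the same subgroup, held 7.37 and 6.19 on all arrays, and Slc25a31, the testis form of the adenine nucleotide carrier, held 6.17. Of the 7 genes in this group 4 varied, 3 higher and 1 lower, with a median of +0.092, and 0 of them had an unadjusted p under 0.05. That median was -0.035 without control rat 2, -0.0084 without L. brevis rat 2 and 0.249 without L. brevis rat 4.

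Slc25a16 had the smallest unadjusted p of the 27 varying probe sets. It encodes a carrier linked to coenzyme A in mitochondria. Control rats had 8.80, 8.92, 8.66 and 8.96, and L. brevis rats 8.93, 9.13, 9.20 and 9.10. L. brevis rats 2 to 4 lay above every control rat, and L. brevis rat 1 fell inside the control range. The difference was +0.26 (SE 0.088, unadjusted p = 0.0252, limma adjusted p = 0.355), or 1.20-fold. Slc25a32, the mitochondrial carrier of FAD and folate, differed by +0.50 (SE 0.19, unadjusted p = 0.0362, limma adjusted p = 0.386) at a dim probe set, with 5.70 to 6.33 in control and 6.27 to 6.81 in L. brevis rats, while its brightest probe set held 7.16 throughout. Slc25a42, the exchanger of coenzyme A for adenine nucleotides, had 8.53, 8.13, 9.05 and 8.32 in control and 8.71, 7.97, 8.26 and 8.24 in L. brevis rats, a difference of -0.21 (SE 0.25, limma adjusted p = 0.831). Control rat 3 was the highest, and the diets overlapped. Slc25a33, a pyrimidine nucleotide carrier, stood at +0.031 (SE 0.23), with 8.10 in L. brevis rat 4 and 7.21 to 7.41 in the other L. brevis rats. Slc25a17, the peroxisomal carrier of the family, and Slc25a36, which carries pyrimidine nucleotides, held 9.27 and 7.82. Over the 3 cofactor and nucleotide carriers with a varying brightest probe set, the median was +0.031, and it was -0.17 without L. brevis rat 4.

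Neither varying carboxylate carrier differed beyond the spread between rats. Slc25a1, the citrate carrier that supplies cytosolic citrate for lipid synthesis, had 7.80, 8.09, 8.47 and 8.50 in control and 8.07, 8.26, 8.55 and 8.72 in L. brevis rats. L. brevis rats 3 and 4 lay above every control rat, and L. brevis rats 1 and 2 lay inside the control range. The difference was +0.18 (SE 0.22, limma adjusted p = 0.835). Slc25a10, the dicarboxylate carrier that exchanges malate and succinate for phosphate, had 8.79, 8.93, 9.19 and 9.66 in control and 8.79, 8.40, 9.57 and 9.91 in L. brevis rats. The lowest and the highest value were both in L. brevis rats. Its difference was +0.025 (SE 0.39, limma adjusted p = 1.0), turned to -0.0020 under quantile normalization, and was -0.0057 at its other probe set. The oxoglutarate carrier gene Slc25a11, of the malate-aspartate shuttle, and Slc25a21, the carrier of oxoadipate, held 9.33 and 6.76.

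Among amino acid carriers the probe sets of 1 gene went different ways. Slc25a15 encodes ORNT1, the ornithine/citrulline exchanger that links the mitochondrial and cytosolic steps of the urea cycle, and it has 6 probe sets, ordered here by mean signal. At the brightest control rats had 11.65, 11.20, 11.54 and 11.65 and L. brevis rats 11.25, 11.51, 11.55 and 11.43, a difference of -0.074 (SE 0.12, limma adjusted p = 0.918). At the fourth in brightness control rats had 9.61, 8.96, 8.57 and 9.66 and L. brevis rats 9.49, 10.24, 10.89 and 10.89, a difference of +1.17 (SE 0.42, unadjusted p = 0.0305, limma adjusted p = 0.359). L. brevis rats 2 to 4 were above every control rat there, and L. brevis rat 1 was inside the control range. At the fifth control rats had 6.31, 6.69, 6.41 and 7.06 and L. brevis rats 6.58, 7.87, 8.36 and 8.87. Its difference was +1.30 (SE 0.51, unadjusted p = 0.0428, limma adjusted p = 0.410), with the same L. brevis rat among the controls. The third and the second stood at +0.89 (SE 0.37) and +0.20 (SE 0.13), and the dimmest held 1 value. These probe sets share a gene and the same rats, so they are not separate evidence of a difference, and the level of Slc25a15 cannot be read as higher from the dimmer ones alone.

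**Figure D2:**
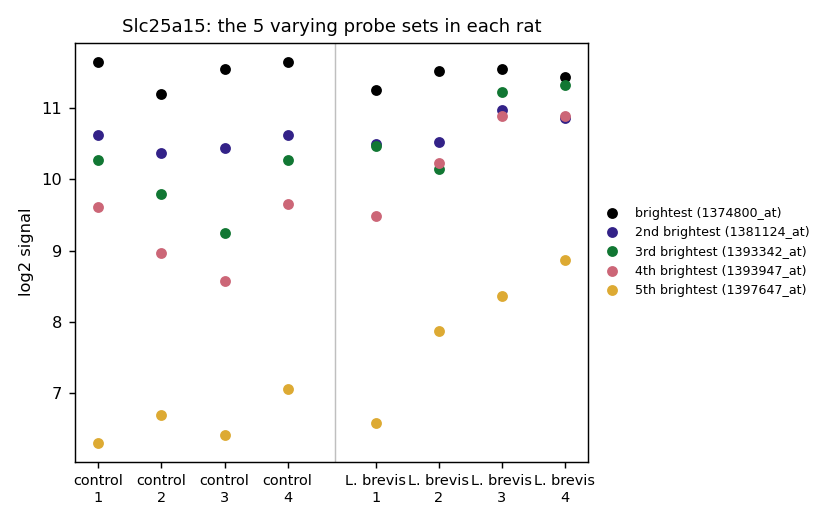
Log2 signal (vertical axis) of the 5 varying Slc25a15 probe sets in each rat, control rats at left and L. brevis rats at right, 1 colour per probe set. The brightest stays between 11.20 and 11.65, while the fifth in brightness runs from 6.31 to 8.87 with its 3 highest values in L. brevis rats 2 to 4.

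Slc25a13, the aspartate/glutamate carrier of liver known as citrin, showed a like split. Its brightest probe set held 11.43 on all arrays. The dimmer one had 7.93, 8.27, 8.08 and 8.50 in control and 8.06, 8.87, 9.72 and 10.27 in L. brevis rats, a difference of +1.03 (SE 0.49, limma adjusted p = 0.522). L. brevis rats 2 to 4 were again above every control rat, and the difference was +0.69 without L. brevis rat 4. Slc25a22, a glutamate carrier, had 10.14, 10.05, 10.45 and 9.95 in control and 10.47, 10.14, 9.99 and 9.40 in L. brevis rats (-0.15, SE 0.25, limma adjusted p = 0.918). Its lowest value was in L. brevis rat 4, the rat with the highest Slc25a13 signal. Slc25a48 stood at +0.034 (SE 0.25). Slc25a12, the aspartate/glutamate carrier of muscle and brain, held 7.14, and the glutamate carrier gene Slc25a18 held 6.29. Slc25a29, a carrier of basic amino acids, Slc25a38, a glycine carrier needed for heme synthesis, and Slc25a44, a carrier of branched-chain amino acids, held 7.42, 8.01 and 7.98.

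Slc25a39, a carrier for the import of glutathione into mitochondria, had a small difference on the negative side. Control rats had 9.88, 9.83, 10.14 and 10.00, and L. brevis rats 9.89, 9.79, 9.78 and 9.77. L. brevis rats 2 to 4 were below every control rat. The difference was -0.15 (SE 0.072, limma adjusted p = 0.505), and -0.097 without control rat 3. Slc25a37, the mitoferrin of erythroid cells, held 7.24. Of the genes related to uncoupling proteins, Slc25a30 spanned more than any other carrier, with 8.97, 7.45, 11.94 and 9.59 in control and 11.00, 9.79, 9.35 and 10.16 in L. brevis rats. Both extremes were control rats, and the difference of +0.59 (SE 0.98, limma adjusted p = 0.921) was -0.091 without control rat 2 and +1.41 without control rat 3. Its SD between rats of a diet, 1.41 log2, was above that of 98.8% of varying probe sets. Its second probe set differed by +0.57 (SE 0.35). Slc25a14 and Slc25a27, forms known from brain, held 7.04 and 6.35.

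Slc25a45, whose substrate was not assigned here, stood lowest of all members relative to control. Control rats had 7.59, 7.29, 7.08 and 8.04, and L. brevis rats 7.19, 6.88, 7.04 and 6.85. Control rat 4 was the highest, and only L. brevis rat 1 lay above the lowest control rat. The difference was -0.51 (SE 0.22, limma adjusted p = 0.466), and -0.33 without control rat 4. Slc25a46, an outer membrane protein of the family involved in mitochondrial shape, had 6.14 to 6.74 in control and 6.39 to 7.52 in L. brevis rats at its dimmer probe set, a difference of +0.60 (SE 0.29, limma adjusted p = 0.520), while its brightest probe set held 9.18. Slc25a51l1 had 6.28, 6.50, 6.45 and 6.77 in control and 6.38, 6.61, 6.90 and 6.95 in L. brevis rats, a difference of +0.21 (SE 0.16, limma adjusted p = 0.703). L. brevis rats 3 and 4 lay above every control rat. Slc25a34, Slc25a35 and Slc25a53 held 6.39, 6.36 and 6.08.

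**Figure D3:**
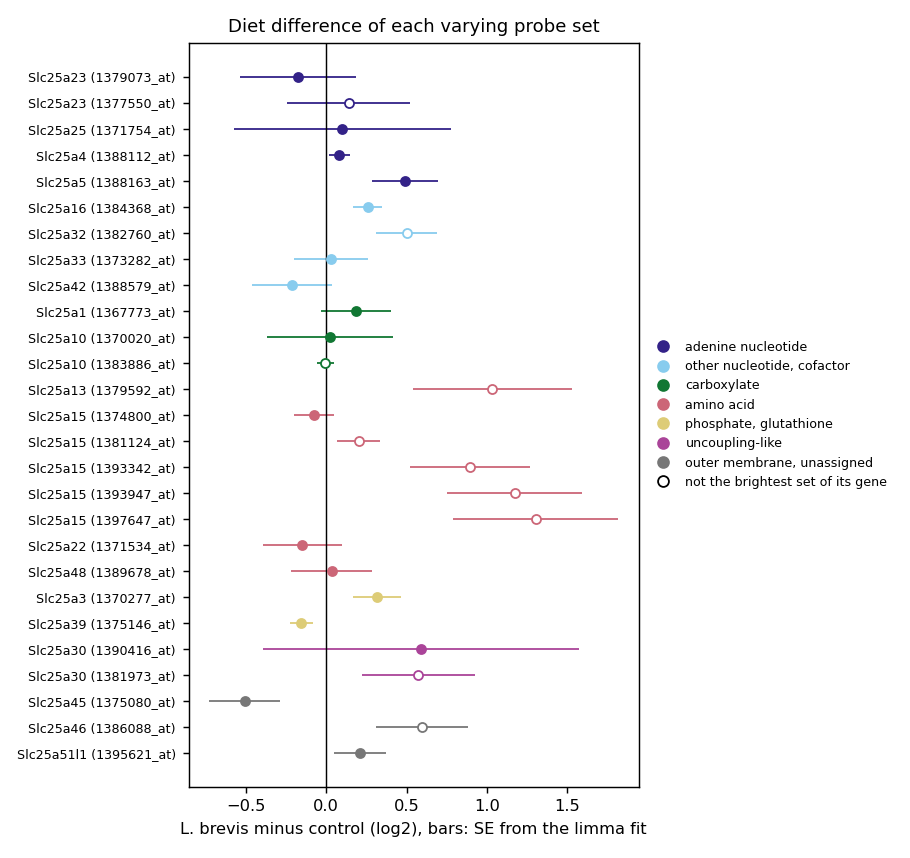
Difference L. brevis minus control (horizontal axis, log2) of the 27 varying carrier probe sets, with the SE of the limma fit as bars and colours by substrate. Open marks are probe sets that are not the brightest of their gene, and the 3 differences above 1 log2, of Slc25a13 and Slc25a15, are all open marks.

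Several of the carriers with a positive difference had a signal that ran with the GAPDH 5' minus 3' index over the 8 rats. The relation was computed for all 27 varying probe sets, and adjusted p-values are over these 27. For Slc25a5 Pearson's r was 0.935 and Spearman's rho 0.952 (exact permutation, adjusted p = 0.00201 and 0.0154), and r was 0.897 without the 2 rats farthest from the median index, control rat 3 and L. brevis rat 4. For the fifth Slc25a15 probe set r was 0.945 and rho 0.952 (exact permutation, adjusted p = 0.00201 and 0.0154), and 0.933 without those rats. The dimmer Slc25a13 probe set had r = 0.911 and rho = 0.905 (exact permutation, adjusted p = 0.00469 and 0.0246), with r = 0.909 without them. Slc25a16 had r = 0.931 and rho = 0.857 (exact permutation, adjusted p = 0.010 and 0.0362), with r = 0.964 without them. In all 8 of 27 carrier probe sets had r above 0.8 (29.6%), each with an adjusted p under 0.05 for r, where 14.8% of all varying probe sets had such an r. The others were those of Slc25a3 (r = 0.831), Slc25a15 at the fourth in brightness (0.843, or 0.670 without both rats), Slc25a46 at its dimmer one (0.924) and Slc25a51l1 (0.857). For the fourth Slc25a15 probe set rho was 0.810 (exact permutation, adjusted p = 0.0653). On the negative side, r was below -0.8 in 0 of the 27, against 14.9% of all varying probe sets.

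The same relation was computed within the diets. Over deviations from each diet's mean r was 0.873 for Slc25a5, 0.886 for the fifth Slc25a15 probe set, 0.842 for Slc25a13 and 0.850 for Slc25a16. It was lowest, of the 8, for the fourth Slc25a15 probe set (0.661) and Slc25a3 (0.691). The brightest Slc25a15 probe set had no such relation (r = -0.173, rho = -0.286, exact permutation adjusted p = 0.70 and 0.541). Slc25a39, Slc25a42 and Slc25a22 ran the other way over all rats, with r of -0.780, -0.736 and -0.728 (exact permutation, adjusted p = 0.0556, 0.0811 and 0.0796). Without control rat 3 and L. brevis rat 4 their r was -0.611, -0.664 and -0.362. Their rho was -0.905, -0.786 and -0.762 (exact permutation, adjusted p = 0.0246, 0.0754 and 0.0902). Over deviations from each diet's mean their r was -0.590, -0.766 and -0.829. Slc25a25 had -0.727 over these deviations and -0.460 over all rats.

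With the GAPDH index as a covariate in the fit, the difference of Slc25a5 was +0.023, that of Slc25a3 +0.048, of Slc25a16 +0.065 and of Slc25a13 -0.041. The fourth and the fifth Slc25a15 probe set stood at +0.46 and +0.13 there, Slc25a32 at +0.35 and Slc25a45 at -0.53. Other differences were larger with the covariate than without it. Slc25a25 stood at +1.37 (beside +0.10), Slc25a30 at +2.13 (beside +0.59) and the brightest Slc25a23 probe set at -0.83 (beside -0.18). In that fit no carrier probe set had an unadjusted p under 0.05 (0 of 27, beside 7.65% of all varying ones), with 13 higher and 14 lower. The index had a difference of +1.13 between the diets itself, and its part in the diet differences was not tested. Across the series 685 dimmer varying probe sets belonged to genes whose brightest one varied too, and 494 of them had a higher difference than the brightest and 191 a lower one, with a median gap of +0.24. Among the carriers 5 of 7 such probe sets were higher, but the 7 belong to only 4 genes. Slc25a15 gave most of the higher ones and Slc25a23 the rest, while those of Slc25a10 and Slc25a30 were lower. Probe sets of 1 gene in the same rats are not separate evidence. Vdac1, the outer membrane channel, stood at -0.11 at its brightest and +1.33 at its other probe set. Cps1, the first enzyme of the urea cycle, stood at -0.053 and +2.07. Got2, the mitochondrial aspartate aminotransferase, went the other way, at +0.21 and -0.28.

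**Figure D4:**
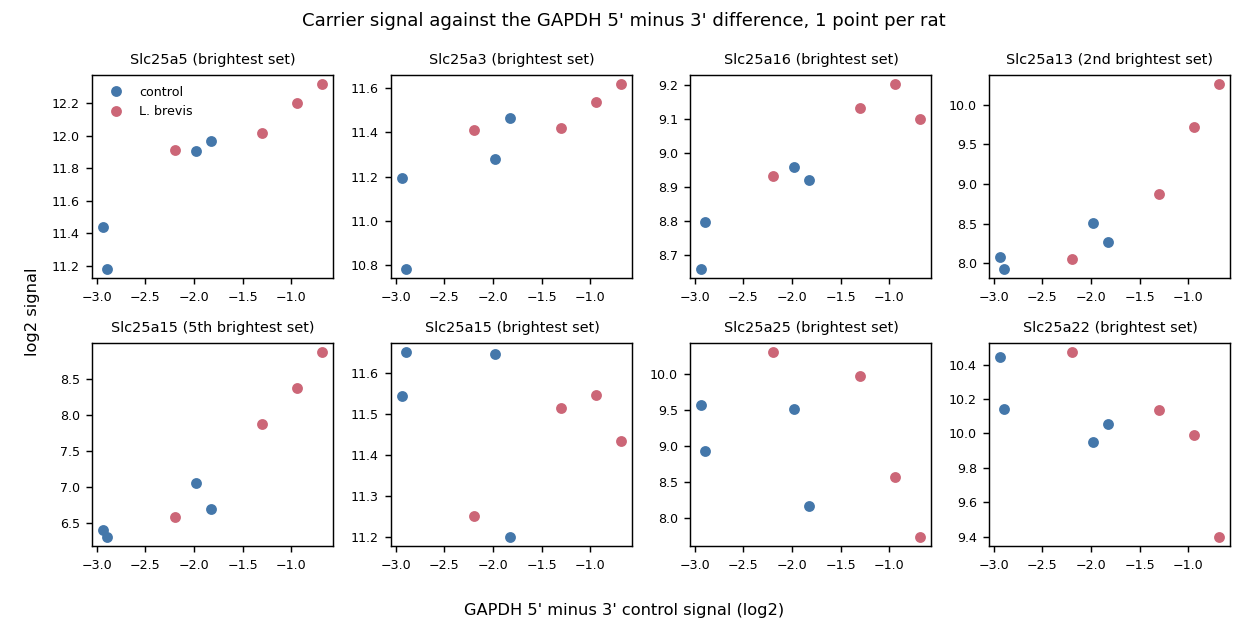
Log2 signal of 8 carrier probe sets (vertical axes) against the GAPDH 5' minus 3' difference in log2 (horizontal axes), 1 point per rat, blue for control and red for L. brevis. Slc25a5, Slc25a3, Slc25a16, Slc25a13 and the fifth Slc25a15 probe set are higher at a higher index (r from 0.831 to 0.945), whereas the brightest Slc25a15 probe set does not (r = -0.173).

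Genes that work beside the carriers gave no call either. Of the 14 measured genes of carrier import 7 varied at their brightest probe set, 2 higher and 5 lower, with a median of -0.013 and none at an unadjusted p under 0.05. Tomm70, the outer membrane receptor for carrier precursors, stood at +0.12 (SE 0.073), and Timm9 and Timm10, the small chaperones of the intermembrane space, at -0.0026 and -0.013. Timm22, the core of the insertion machinery, held 7.76. Of the other membrane transport genes 3 of 10 varied. Mpc1, a subunit of the pyruvate carrier, differed by +0.40 (SE 0.16, unadjusted p = 0.0431, limma adjusted p = 0.411), from 11.14 ± 0.15 to 11.54 ± 0.28 (SD, n = 4 each). Its partner Mpc2 stood at +0.30 (SE 0.12, limma adjusted p = 0.432). Of the 6 shuttle enzymes all varied, 4 higher and 2 lower at their brightest probe set with 0 at an unadjusted p under 0.05, led by Got1, the cytosolic aspartate aminotransferase, at +1.15 (SE 0.57, limma adjusted p = 0.525). Dimmer probe sets of Gpd1, the cytosolic glycerol phosphate dehydrogenase, and of Tomm20, an outer membrane import receptor, stood at +0.83 (unadjusted p = 0.0169, limma adjusted p = 0.347) and +0.42 (unadjusted p = 0.0052, limma adjusted p = 0.306). All L. brevis rats lay above all control rats at both, a pattern of 4.21% of all varying probe sets. The brightest probe sets of Gpd1 and Tomm20 stood at +0.25 and +0.025. The dimmer Vdac1 probe set, at +1.33, was separated in the same way (unadjusted p = 0.0116, limma adjusted p = 0.347). No other varying probe set of the genes listed beside the carriers was separated. These include dimmer ones of Timm8a1, Me1, Mdh1, Gpd2, Got2 and Sfxn1. The citrate synthase gene Cs and Acly, which splits exported citrate, held 8.92 and 8.73. Of the family members named otherwise, Mtch2 stood at +0.045 (SE 0.037), and the uncoupling protein genes Ucp1, Ucp2 and Ucp3 held 6.06, 7.28 and 6.68.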

How the data were processed

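Liver RNA of 8 rats was measured on Affymetrix 3' arrays labelled with a 3' in vitro transcription kit, per the labels' protocols. The deposited table holds log2 signals already normalized by the authors, by a method that is not stated in the labels. The deposited values had 31099 probe sets, of which 57 controls were left out of the tests. Symbols came from the platform annotation, updated through gene identifiers (20826 probe sets with 1 gene). The labels call the samples biological replicates.

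Diet effects (L. brevis minus control) were estimated by limma 3.58.1 (R 4.3.3; lmFit, then eBayes with a trend) on the whole table of 31042 probe sets. The tests were two-sided, and p-values were adjusted by Benjamini-Hochberg over the whole table at a threshold of 0.05. The fit was tested on simulated data. Correlations used exact permutations, with adjustment over the 27 relations to the GAPDH index and none for the pair of Slc25a3 and Slc25a5. Medians and counts over genes used each gene's brightest probe set, and other varying probe sets were given beside it. Probe sets of a gene were ordered by mean signal to name them, which does not compare amounts of RNA. The precision is limited by the number of arrays. The members, substrate groups and lists were chosen with earlier results of these data known. The rule for genes given in full took the 8 of smallest unadjusted p among those with a varying brightest probe set, and the brightest varying gene of each substrate group. Slc25a1, Slc25a22, Slc25a25 and dimmer probe sets of Slc25a13, Slc25a15, Slc25a32 and Slc25a46 were added after their values were seen.

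Alternatives were other probe set selections, scalings, covariates and weights, a replicate block, and leaving out each rat.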

Additional observations from a re-analysis of the deposited data

How the results depend on the processing

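No carrier probe set passed the adjusted threshold under any of the alternatives run. The count of 4 at an unadjusted p under 0.05 was 7 in the fit to varying probe sets alone (6 higher, 1 lower), 7 under quantile normalization (5 and 2), 10 under median centring (9 and 1), 11 with array weights (10 and 1) and 0 with the GAPDH covariate, and ran from 0 to 6 with 1 rat left out. Over all varying probe sets the share with such a p was 22.9% in the fit reported, and 24.5%, 27.2%, 29.7%, 41.2% and 7.65% under these settings in turn. The replicate numbers were not taken as pairs, since the labels give no shared source and 3, not all, of the 4 same-numbered correlations of deviations were over 0.1. These ran from 0.0778 to 0.381 and the other 12 from -0.519 to 0.397, 8 of them below 0, and 5 of 8 rats correlated best with their own number, a hint from the data only. With a replicate block the count was 3 and the differences were the same. The median over amino acid carriers (-0.074 over brightest probe sets) was 0.367 with all varying probe sets of a gene averaged, that over carboxylate carriers (0.105) was -0.340 with the GAPDH covariate and -0.072 to 0.256 with 1 rat left out, and that over cofactor and nucleotide carriers (0.031) ran from -0.172 to 0.123 with 1 rat left out. The outer membrane and unassigned group (-0.148) stood at -0.507 with bright probe sets only and at 0.21 with averaged or brightest varying probe sets (the latter chosen after seeing the data). Slc25a30, the one varying gene of the uncoupling-like group, stood at 2.13 with the GAPDH covariate and ran from -0.091 to 1.41 with 1 rat left out. With that covariate the sign turned for 11 of the 27: Slc25a51l1 (-0.153), Slc25a4 (-0.013), Slc25a42 (0.279), Slc25a10 (-0.545), Slc25a13 (-0.041), Slc25a46 (-0.041), Slc25a1 (-0.135), Slc25a22 (0.378), Slc25a33 (-0.281), Slc25a48 (-0.314) and the second Slc25a23 probe set (-0.465). It also turned for the brightest Slc25a15 probe set with array weights (0.026) and for Slc25a10 under quantile normalization (-0.0020) and with 1 rat left out (-0.222 to 0.280). The causes of these changes were not tested. Probe sets with 1 value on all arrays limit what can be read for the other carrier genes.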
